A study of Mus musculus with 24 samples.

Results

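Mast cells are tissue-resident cells of the haematopoietic lineage that store preformed mediators in cytoplasmic granules. Connective tissue mast cells pack these granules with chymases, tryptases and carboxypeptidase A3, bound to the proteoglycan serglycin, and they depend on the receptor KIT and its ligand stem cell factor. When antigen cross-links IgE on the high-affinity receptor FcεRI, the granules are released. Loose connective tissue, skin and the coverings of bone hold such cells, whereas cartilage itself is avascular and is built by chondrocytes.

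The 7 genes described here were the chymase genes Cma1 and Mcpt4, the carboxypeptidase gene Cpa3, the tryptase genes Tpsb2 and Tpsab1, and the receptor genes Kit and Ms4a2 (the beta chain of FcεRI). They were taken by symbol from the 52178 genes of the count table, and each symbol matched 1 row. They had been chosen by their level in metatarsals against hip caps in these same libraries, so values that compare hip caps with metatarsals are given for these genes as a description, with no test. Differences between pressures, and the way the genes varied among libraries of 1 tissue, were not used to pick them.

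RNA came from 2 kinds of cartilage explant of C57/BL6 mice (C57/BL6J in the study's methods). Hip caps were the femoral heads of 4-week-old males, of which 2 were pooled per sample (both from 1 mouse), and metatarsals came from E15 embryos, with 6 bones pooled per sample. After 24 hours in culture each explant was kept at 0 MPa (control) or exposed for 1 hour to 5 MPa, a physiological load, or 50 MPa, an injurious load, and it was cultured for 24 hours more before total RNA was taken (the sample labels write the unit as mPa). There were 4 libraries in each of the 6 groups, and they are named below by tissue (H or M), by C, 5 or 50 for the pressure, and by replicate, so that M504 is the metatarsal library of replicate 4 at 50 MPa. The labels do not say that metatarsal samples came from separate litters, so p-values measure the spread between these samples only.

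Total counts ran from 4185241 to 25104240 per library. HC4 and H502 had been left out of the tests by the study as outliers, and they are left out here unless named, so that 22 libraries were fitted. HC3, M504 and all 4 hip caps at 50 MPa were unstranded libraries. Levels are in CPM, the count of a gene scaled by the library's total after TMM (trimmed mean of M values) normalization, and levels of different genes are compared only per kilobase of transcript. Hip caps had 37910 to 64520 CPM over 5 cartilage genes in the 3 controls used, and control metatarsals had 1247 to 3383 CPM with 895.7 to 2190 CPM over 5 skeletal muscle genes (Myog, Ttn, Acta1, Ckm, Myh3), so the embryonic explants also held muscle. Metatarsals carried 4247 to 6243 CPM over 5 fibroblast genes in the controls. In bulk samples fewer mast cells and less RNA per mast cell cannot be told apart.

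The member promoters are shown first, and those of 3 granule genes are printed. A link between these sequences and the levels below was not tested. RefSeq (GRCm38.p6) gave a start site for 5 of the 7 genes, all but Tpsb2 and Tpsab1. The 250 bases before each start site were searched on both strands for the GATA words AGATAA and AGATAG, the GATA words TGATAA and TGATAG, and the E-box words CACGTG and CATGTG. The GATA factors and the basic helix-loop-helix factor MITF, which binds E-boxes, are known regulators of the mast cell lineage. Capitals mark the GATA word found in each sequence, which is written 5′ to 3′ on the gene's strand.
Cma1 (chr14:55944676-55944925, minus strand): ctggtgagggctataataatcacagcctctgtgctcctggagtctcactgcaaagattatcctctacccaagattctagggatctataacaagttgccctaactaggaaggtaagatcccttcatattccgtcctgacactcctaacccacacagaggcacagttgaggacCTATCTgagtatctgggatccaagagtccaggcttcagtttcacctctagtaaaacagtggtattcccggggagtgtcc
Mcpt4 (chr14:56062311-56062560, minus strand): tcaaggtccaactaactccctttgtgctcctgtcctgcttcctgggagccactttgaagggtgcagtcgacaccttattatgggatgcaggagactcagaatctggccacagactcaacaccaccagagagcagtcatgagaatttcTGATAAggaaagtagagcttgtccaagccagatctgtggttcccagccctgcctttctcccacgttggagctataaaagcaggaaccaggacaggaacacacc
Cpa3 (chr3:20242182-20242431, minus strand): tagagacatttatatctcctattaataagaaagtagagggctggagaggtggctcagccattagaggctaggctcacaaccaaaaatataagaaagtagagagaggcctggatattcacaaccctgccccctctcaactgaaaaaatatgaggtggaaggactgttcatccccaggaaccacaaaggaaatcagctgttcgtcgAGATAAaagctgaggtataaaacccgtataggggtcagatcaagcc

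Each of these 3 windows held 1 GATA word. In Cma1 it was AGATAG on the opposite strand, beginning at -79 from the start site, in Mcpt4 it was TGATAA at -103 and in Cpa3 it was AGATAA at -46. The window of Ms4a2 held AGATAA 3 times, at -224 and -37 on the opposite strand and at -11, and both windows listed for Kit held 0 of the words searched. Of 32536 different promoter windows of the same length, 26.5% held at least 1 of the 4 GATA words. An E-box word was in 0 of the members' windows and in 17.7% of all windows. These are matches of letters and do not show binding.

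In metatarsals 4 granule genes were present in every library. Cma1, which encodes the alpha-chymase of connective tissue mast cells, was at 4.83, 2.91, 14.1 and 7.80 CPM in controls MC1 to MC4, at 6.27, 9.76, 13.5 and 10.4 CPM at 5 MPa and at 6.36, 4.75, 7.88 and 15.8 CPM at 50 MPa. MC3, M53 and M504 were the high libraries, MC2 was the lowest, and the 3 pressure groups overlapped. Mcpt4, the beta-chymase that is the main chymotrypsin-like enzyme of this cell type, was at 2.79, 1.56, 8.71 and 3.30 CPM in controls, at 3.92, 3.83, 8.69 and 5.90 CPM at 5 MPa and at 3.66, 2.77, 4.84 and 9.32 CPM at 50 MPa. The high and the low libraries were those of Cma1.

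Cpa3, a carboxypeptidase that trims peptides and is shared by all mast cell subtypes, was at 4.46, 2.91, 10.0 and 9.44 CPM in control metatarsals, at 4.09, 4.56, 11.3 and 12.8 CPM at 5 MPa and at 6.04, 4.63, 5.78 and 10.7 CPM at 50 MPa. Tpsb2, which encodes the mast cell tryptase long known as mMCP-6, was at 3.72, 4.31, 17.6 and 11.7 CPM in controls, at 6.66, 9.18, 13.8 and 12.4 CPM at 5 MPa and at 6.93, 6.48, 9.57 and 12.3 CPM at 50 MPa. M54 was highest for Cpa3 and MC3 for Tpsb2. Tpsab1, the neighbouring tryptase gene, was far lower, with 1 to 25 counts and 0.186 to 1.39 CPM over the 12 metatarsal libraries. MC3 was again the highest. MC1 had 1 count and MC4 had 3, at or under the floor of 3 counts used below.

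**Figure D1:**
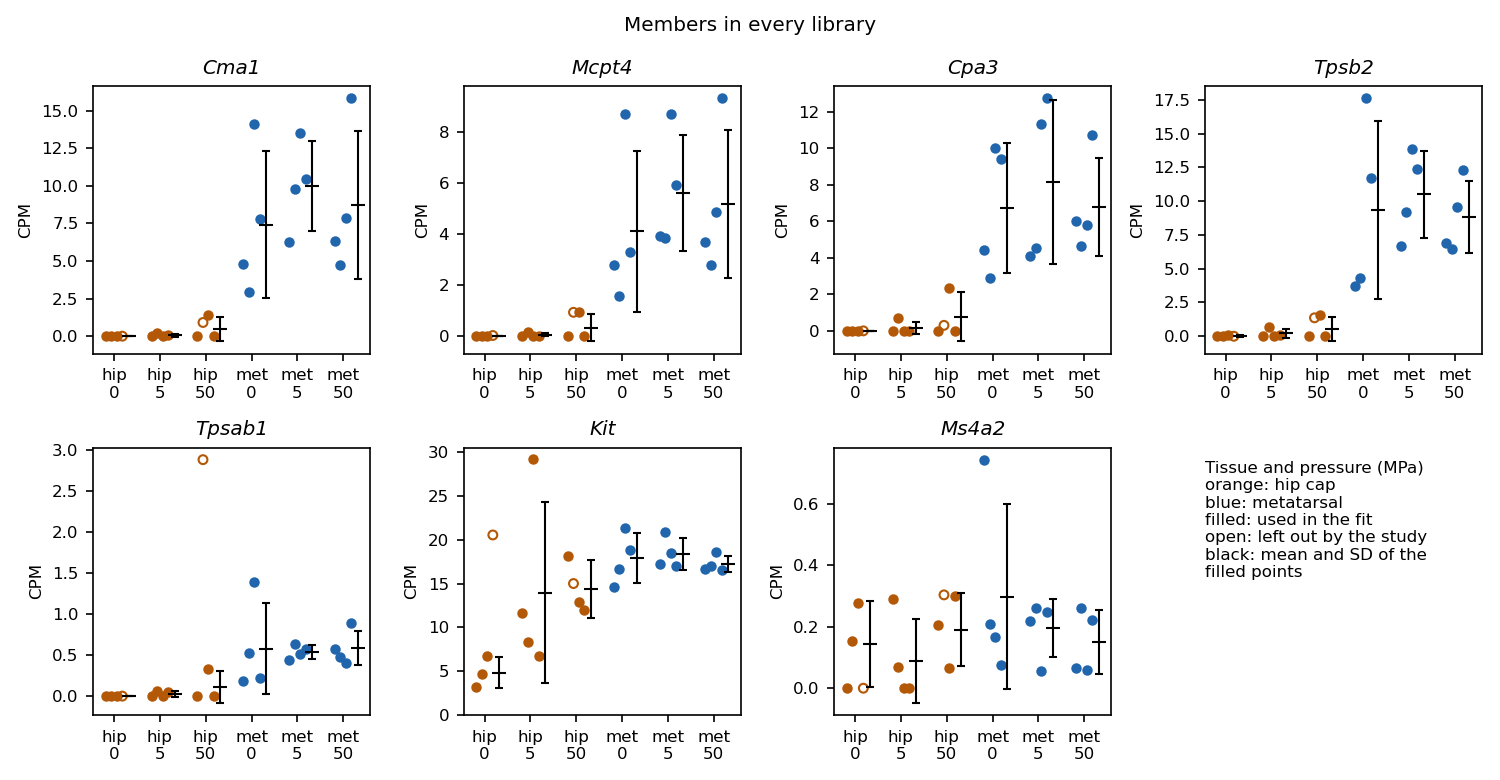
Level (CPM, linear axis) of each of the 7 genes in every library, by tissue (hip cap orange, metatarsal blue) and pressure in MPa; filled points entered the fit, open points are HC4 and H502, and the black marks are the mean and SD of the filled points. The granule genes lie near 0 in hip caps other than H52, H502 and H503 and spread widely in metatarsals, whereas Kit lies between 14.7 and 21.4 CPM in all 12 metatarsal libraries and between 3.17 and 29.3 CPM in the hip caps.

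Kit, the receptor for stem cell factor, was even across the metatarsals. It was at 14.7, 16.7, 21.4 and 18.8 CPM in controls, at 17.2, 20.9, 18.5 and 17.0 CPM at 5 MPa and at 16.7, 17.1, 18.6 and 16.6 CPM at 50 MPa. Its highest library was 1.45-fold above its lowest, against 4.38-fold for Cpa3, 4.75-fold for Tpsb2, 5.44-fold for Cma1 and 5.98-fold for Mcpt4. Among 7308 tested genes with a mean of 3 to 20 CPM in metatarsals the median ratio was 1.79, and 2.46% to 4.06% of them had a ratio as high as that of 1 of these 4 granule genes, whereas 84.5% had a ratio at least as high as that of Kit. Kit is also made by melanoblasts, germ cells and haematopoietic progenitors.

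Ms4a2 was close to the limit of the libraries. It had 1 to 6 counts in each of the 12 metatarsal libraries (0.0572 to 0.743 CPM) and 0 to 5 counts in each hip cap, and it was the 1 member that did not pass the filter on low counts. Fcer1a, which encodes the IgE-binding alpha chain, had 1 count over all 12 metatarsal libraries and 3 counts over the 10 hip caps, and a library with 0 counts allows up to 3. Fcer1g, the signalling gamma chain that macrophages and other myeloid cells also make, had 36 to 189 counts in every metatarsal library. Of the 3 chains of FcεRI, the gamma chain was thus the 1 with more than 6 counts in any library used.

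Per kilobase of transcript, the metatarsal levels were highest for Tpsb2 (median 8.53 CPM per kb), followed by Cma1 (7.24), Cpa3 (4.08), Mcpt4 (3.5), Kit (3.28), Tpsab1 (0.335) and Ms4a2 (0.192). Tpsb2 was above Cma1 in 9 of 12 libraries and Cma1 was above Cpa3 in 12 of 12, but the ranges of both pairs overlapped. Cpa3 was above Mcpt4 in 6 of 12 libraries and Mcpt4 was above Kit in 7, so these 3 neighbours in the order did not differ beyond their spread. The range of Kit (2.81 to 4.08 CPM per kb) lay above that of Tpsab1 (0.120 to 0.899). Tpsab1 was above Ms4a2 in 11 of 12 libraries with overlapping ranges.

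Hip caps held almost no granule protease RNA. Cma1, Mcpt4, Cpa3 and Tpsab1 had 0 counts in all 4 control hip caps, HC4 included, and Tpsb2 had 1 count, in HC3. Against a floor of 3 counts in each of the 3 control libraries used, the mean of the control metatarsals was at least 14.5-fold higher for Cma1, at least 13.1-fold for Cpa3, at least 8.0-fold for Mcpt4 and at least 1.13-fold for Tpsab1. Tpsb2, with its 1 count, has no such bound, and its ratio to the pooled control hip caps was 197 with a 95% counting interval from 35.3 to 7770, which is not comparable with the bounds. H51, H501 and H504 had 0 counts for all 5 granule genes, and H53 and H54 had 1 and 4 counts in sum. Scaled by library size alone, the median of all tested genes in this comparison was -1.06 on the log2 scale, against -0.11, so hip caps would lie lower still.

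More than 4 counts of the 5 genes in sum were found in 2 of the hip caps used and in 1 of those left out. H52 (5 MPa) had 3 counts of Cma1, 2 of Mcpt4, 10 of Cpa3, 10 of Tpsb2 and 1 of Tpsab1, which summed to 1.77 CPM. H503 (50 MPa) had 21, 14, 35, 23 and 5 counts, or 6.59 CPM. H502 (50 MPa, left out) had 6, 6, 2, 9 and 19 counts, or 6.37 CPM. In metatarsals the 5 genes summed to 12.2 to 51.9 CPM.

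The share of each gene in this pool was compared with its range over single metatarsal libraries. Over all metatarsal libraries Tpsb2 gave 31.2% of the 6530 counts of the 5 genes, Cma1 27.8%, Cpa3 23.3%, Mcpt4 15.8% and Tpsab1 1.88%. In H503 the shares of its 98 counts were 23.5% for Tpsb2 (95% Wilson interval 16.2% to 32.8%), 21.4% for Cma1 (14.5% to 30.5%), 35.7% for Cpa3 (26.9% to 45.6%), 14.3% for Mcpt4 (8.70% to 22.6%) and 5.10% for Tpsab1 (2.20% to 11.4%). Single metatarsal libraries ran from 23.3% to 36.0% for Tpsb2, 23.8% to 34.9% for Cma1, 16.3% to 30.3% for Cpa3, 10.2% to 19.0% for Mcpt4 and 0.693% to 4.26% for Tpsab1, and the interval of H503 overlapped this range for each gene. In H502 Tpsab1 gave 45.2% of 42 counts (31.2% to 60.1%). This interval lay above the metatarsal range. The intervals cover counting error only.

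Part of the wider mast cell programme was also lower in hip caps. Of 18 further mast cell genes, 15 passed the filter, and between the control tissues 7 were lower in hip caps and 2 were higher by edgeR's quasi-likelihood test at an adjusted p of at most 0.05, beside 38.6% of all tested genes called in this comparison, 20.2% lower in hip caps and 18.4% higher. With library sizes alone 11090 of all tested genes were called lower in hip caps and 958 higher, against 4300 and 3912. The median log2 fold change of the 15 was -0.76, against -0.11 over all tested genes. The list was written with earlier results of these data known.

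Hdc, the enzyme that makes histamine, was at 1.86, 2.86, 7.65 and 5.02 CPM in control metatarsals and at 0, 0.464 and 1.02 CPM in control hip caps. The groups did not overlap, as for 42.3% of tested genes, and the log2 fold change was -3.35 (SE 0.82, adjusted p = 0.00288). Tph1, which starts serotonin synthesis, was lower in hip caps by a log2 fold change of -2.67 (SE 0.76, adjusted p = 0.00830), and Hpgds, the prostaglandin D2 synthase of haematopoietic cells, by -2.15 (SE 0.68, adjusted p = 0.0158). Gata2, a transcription factor of the lineage, gave -2.46 (adjusted p = 0.0217). With HC4 and H502 in the fit Hdc and Hpgds no longer passed (adjusted p = 0.0963 and 0.0549).

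Mrgprb1, a gene of the Mas-related receptor family found on connective tissue mast cells, was at 0.450 to 1.28 CPM in control metatarsals and was lower in hip caps (log2 fold change -2.89, SE 1.00, adjusted p = 0.0257), a call that was lost with all 24 libraries (adjusted p = 0.860). Mrgprb2, the receptor through which basic peptides and drugs activate these cells, had 36 counts over 11 of 12 metatarsal libraries and 0 in the 10 hip caps used. Ndst2, an enzyme that sulphates heparin, was lower in hip caps by -0.76 (SE 0.16, adjusted p = 0.000868). Slc18a2, the transporter that loads amines into granules, was called lower in hip caps as well (log2 fold change -3.11, adjusted p = 0.0163), but its counts moved with the library type. It was at 2.70 to 5.59 CPM in the unstranded hip caps at 50 MPa and at 3.92 CPM in M504, against at most 1.05 CPM in the 11 stranded metatarsals and 0.740 CPM in HC3. The library type term was 3.38 on the log2 scale (adjusted p = 0.0032, beside 6.16% of tested genes called for it), and the call was lost without the library type term (adjusted p = 0.653).

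The 2 genes called higher in hip caps were Srgn, which encodes serglycin and is made by many haematopoietic cells and by chondrocytes (log2 fold change 2.57, SE 0.26, adjusted p = 8.50e-08), and Mitf (1.31, SE 0.16, adjusted p = 7.58e-07). Mitf had a log2 fold change of 0.35 with library sizes alone and was then not called. Ltc4s, the enzyme of leukotriene C4 synthesis, had 5 counts over all metatarsal libraries, while hip caps had up to 77 counts, in H503. H503 was also the highest hip cap used for Il1rl1, the receptor for interleukin-33 (92.8 CPM, against 6.84 to 49.5 CPM in the other 9).

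Mucosal mast cells and basophils express other proteases, and few of these were found in metatarsals. Mcpt1 and Mcpt2, the mucosal chymases, had 3 and 18 counts in sum over 12 metatarsal libraries, against 1817 for Cma1 and 1034 for Mcpt4. Mcpt8 and Prss34, which mark basophils, had 6 and 8. Cd200r3 and Il3ra, which are not proteases and were listed as basophil genes too, were not near 0. They were at 3.62 to 13.6 CPM and at 1.67 to 5.27 CPM over the 12 metatarsal libraries. Cma1 and Mcpt4 lie on chromosome 14 in a cluster in which Cma2, Mcpt1, Mcpt9 and Mcpt2 stand between them and Mcpt8, Ctsg and the granzymes follow, and Cma2 and Mcpt9 had 3 and 4 counts. Tpsab1 and Tpsb2 are neighbours on chromosome 17. Of the 31-base words in the annotated transcripts, 10.6% of those of Cma1 and 12.2% of those of Mcpt4 also occur in other genes, the latter in Cma2, Mcpt9 and Mcpt1, so a small part of the counts could be assigned either way. Tpsb2 and Tpsab1 shared under 1% of their words.

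Across the 12 metatarsal libraries the granule genes moved together. Pearson's r of log2(CPM + 1) between Cma1 and Mcpt4 was 0.956 (adjusted p = 0.00021, permutation test with 100000 resamples, two-sided) and Spearman's rho was 0.937 (adjusted p = 0.00126), over 21 pairs of members. The raw p of this r, 1e-05, is the smallest that the resamples can give. All 6 pairs among Cma1, Mcpt4, Cpa3 and Tpsb2 passed, with r from 0.824 to 0.956 and rho from 0.720 to 0.937. Without the 2 libraries farthest from the median of the first gene r was between 0.752 and 0.916, and it was between 0.832 and 0.953 for deviations from the mean of each pressure, a check added after seeing the data. A link with muscle genes was not tested. M504, the only unstranded metatarsal library and the highest for Cma1, had the lowest muscle sum (353.5 CPM). MC4, with the highest muscle sum (2190 CPM), had 7.80 CPM of Cma1. These 2 libraries do not show how muscle ran with the granule genes in the rest.

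**Figure D2:**
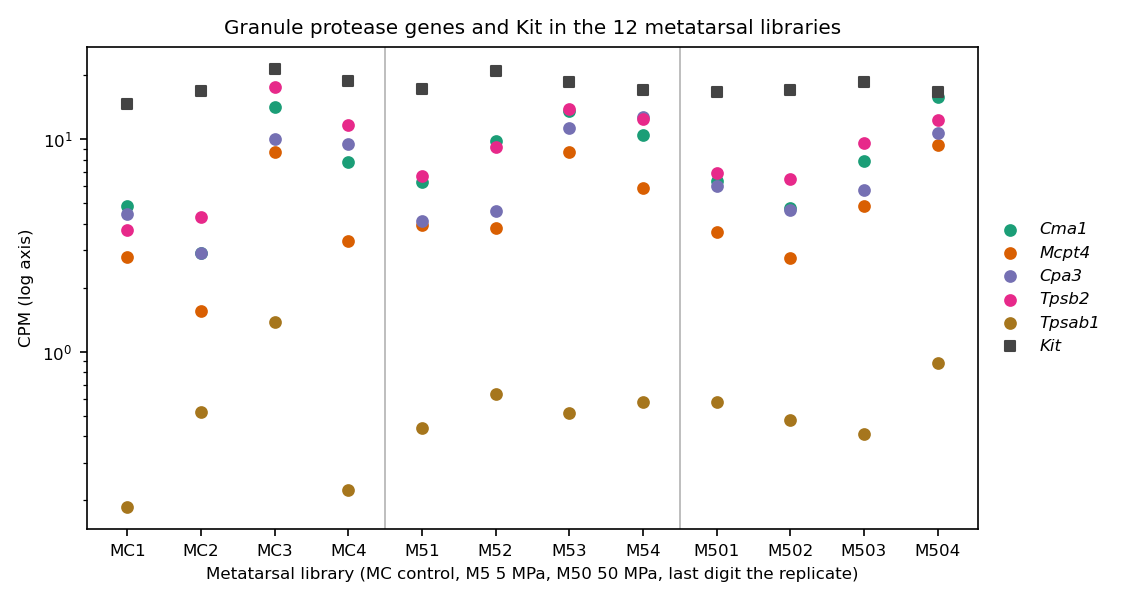
Level (CPM, log axis) of 5 granule genes (circles) and Kit (squares) in the 12 metatarsal libraries, in order of pressure and replicate. Cma1, Mcpt4, Cpa3 and Tpsb2 are low in MC2 and high in MC3, M53 and M504, and Kit stays between 14.7 and 21.4 CPM.

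Tpsab1, Kit and Ms4a2 followed less closely. Tpsab1 had r of 0.368 to 0.618 with the 4 granule genes and passed in 0 of 4 pairs by the permutation test (unadjusted p from 0.0288 to 0.250), at counts of 1 to 25 per library. Kit had r of 0.261 to 0.687 with them, and its pair with Tpsb2 passed (r = 0.687, adjusted p = 0.0426 by permutation test), but Spearman's rho of that pair was 0.503 (adjusted p = 0.229 by permutation test) and r was 0.491 without the 2 libraries farthest from the median. Ms4a2, at 1 to 6 counts, had r from -0.566 to -0.253 with the other 6, and 0 of these pairs passed by the permutation test, 1 of them at an unadjusted p under 0.05. The differences between these correlations were not tested.

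**Figure D3:**
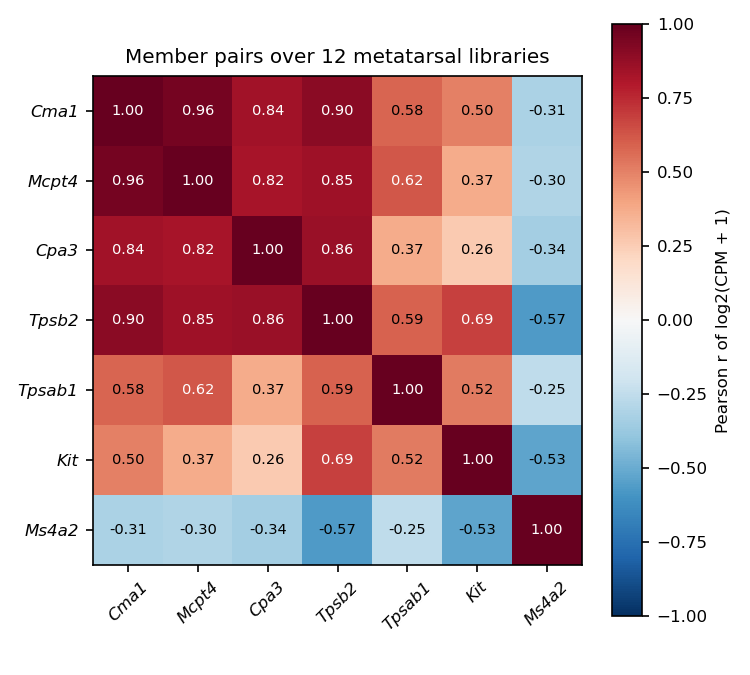
Pearson's r of log2(CPM + 1) for each pair of the 7 genes over the 12 metatarsal libraries, on a colour scale from -1 to 1. The block of Cma1, Mcpt4, Cpa3 and Tpsb2 lies between 0.82 and 0.96, and each pair with Ms4a2 is below 0.

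MC2, the lowest library for Cma1, Mcpt4 and Cpa3, also stood apart in 4 keratinocyte genes (Krt5, Krt14, Krt15, Trp63), with 219 CPM against 1.67 to 4.2 CPM in the other 11. Without MC2 the 6 pairs kept r between 0.760 and 0.937. Among 16744 genes with a mean of at least 1 CPM in metatarsals, the 5 whose level was most like the summed level of the members other than Kit were Qpct (r = 0.957), Kif23 (0.919), Fbxo2 (0.898), Cdkn2c (0.893) and Parpbp (0.869). Qpct encodes glutaminyl-peptide cyclotransferase and ranged from 0.987 to 2.44 CPM. Hdc ranked 12 with r = 0.854. These values are over 12 libraries and share depth and scaling, and they are a description.

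In metatarsals 0 of the 6 tested members passed the test at either pressure, beside 0% of all 21283 tested genes. At 5 MPa the log2 fold changes by edgeR were 0.41 for Cma1 (SE 0.52), 0.42 for Mcpt4 (SE 0.54), 0.27 for Cpa3 (SE 0.71), 0.14 for Tpsb2 (SE 0.55), -0.23 for Tpsab1 (SE 0.59) and 0.03 for Kit (SE 0.31), with an adjusted p of 1 for each. At 50 MPa they were -0.25, -0.15, -0.31, -0.33, -0.38 and -0.12, with SE from 0.33 to 0.78. None of the 6 had an unadjusted p under 0.05 by edgeR, and DESeq2 likewise called 0 of them. Over all genes edgeR gave an unadjusted p under 0.05 to 480 genes at 5 MPa and to 667 at 50 MPa, and DESeq2 called 14 and 15.

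The SE of the 5 granule genes ran from 0.52 to 0.78 on the log2 scale and that of Kit was 0.31 and 0.33, so changes of the size fitted were not detectable. Mcpt4 alone spread from 1.56 to 8.71 CPM within the 4 controls. M504 was the only unstranded metatarsal library, and the change of Cma1 at 50 MPa was -0.26 without it. Without the library type term the change of Cma1 at 50 MPa was 0.21 (SE 0.56), and in a fit of the metatarsals alone it was 0.18 (SE 0.52), against -0.25. Leaving out MC3 turned it to 0.29. For Ms4a2 an exact permutation test gave p = 0.8 at 5 MPa (0.196 against 0.298 CPM) and 0.543 at 50 MPa (0.151 CPM), two-sided, with 0.0286 the smallest p that 4 against 4 allows.

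**Figure D4:**
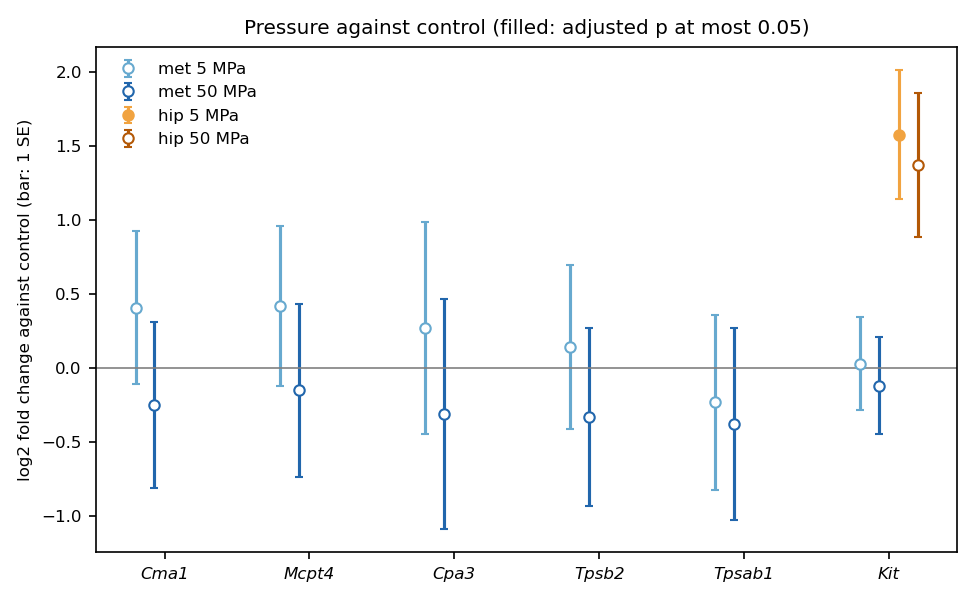
Log2 fold change against control from edgeR, with bars of 1 SE, for the 6 tested members in metatarsals at 5 and 50 MPa and for Kit in hip caps. Filled points have an adjusted p of at most 0.05, which holds for Kit in hip caps at 5 MPa, and the metatarsal values lie between -0.38 and 0.42.

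In hip caps Kit rose at 5 MPa. It was at 3.17, 4.63 and 6.75 CPM in the 3 control hip caps used and at 11.7, 8.33, 29.3 and 6.73 CPM at 5 MPa. H53 was far above the rest, and H54 lay just under the highest control, so the groups overlapped. The log2 fold change was 1.58 (SE 0.44, adjusted p = 0.0418 by edgeR), and Kit was thus 1 of 6 tested members called, beside 5.46% of all tested genes called in either direction and 2.69% called higher. The other 5 had at most 1 count in any control hip cap and passed the filter through the metatarsals. The test had little to work on for them here, so the share of members called says little. With library sizes alone the genes called at 5 MPa were 3867 higher and 226 lower, against 572 and 590, and Kit stayed called (2.15, adjusted p = 0.00521). Mean levels were 14.0 ± 10.4 CPM (SD, n = 4) and 4.85 ± 1.80 CPM (SD, n = 3).

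This call rested on few libraries. HC4, the control that was left out, had 20.6 CPM of Kit, above every other hip cap except H53, and with all 24 libraries the log2 fold change fell to 0.55 (adjusted p = 0.70). Without H53 it was 0.96 (adjusted p = 0.0490). Leaving out HC1, HC2 or HC3 gave 1.35, 1.55 and 1.81 with adjusted p of 0.276, 0.0910 and 0.0520. Leaving out MC2, MC4 or M53, which enter the fit but not the contrast, left the change at 1.58 with adjusted p from 0.0515 to 0.0521.

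At 50 MPa Kit was at 18.1, 12.9 and 12.02 CPM in H501, H503 and H504, above all 3 controls used, with 15.8% of tested genes likewise not overlapping between these groups. The log2 fold change was 1.37 (SE 0.49) and did not pass (adjusted p = 0.115 by edgeR, beside 2.31% of genes called), while DESeq2 and the fit without the library type term gave an adjusted p of 0.0392 and 0.0417. Those 3 libraries were unstranded, as was HC3 among the controls. The change in hip caps less that in metatarsals was 1.55 at 5 MPa (SE 0.54, adjusted p = 0.194) and 1.49 at 50 MPa (SE 0.55, adjusted p = 0.173), so a difference in response between the tissues was not shown. In hip caps the level of Kit thus ran from 3.17 to 29.3 CPM over the 10 libraries used, and the 3 controls used lay below the whole metatarsal range.

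Leukocyte genes were set beside Kit in the hip caps, with no test of a link. The summed level of Ptprc, Cd53, Coro1a and Laptm5, which are made by nearly all white blood cells, was 19.5 to 28.5 CPM in the control hip caps used, 30.6 to 137 CPM at 5 MPa and 42.3 to 55.6 CPM at 50 MPa. H53 (137 CPM) and HC4 (114 CPM) had the highest sums, as they did for Kit. Among the 3 libraries used at 50 MPa the order was reversed. H501 had the highest Kit at the lowest sum (42.3 CPM), and H504 had the lowest Kit at the highest sum (55.6 CPM). The sum of H504 was mostly Laptm5 (43.9 CPM), with 3.00 CPM of Ptprc. In hip caps at 5 MPa 1 of the 4 passed (Laptm5, log2 fold change 1.49, adjusted p = 0.0465), beside 2.69% of all tested genes called higher. Of 8 macrophage genes 2 rose, Cd68 (1.73, adjusted p = 0.0135) and Csf1r (1.37, adjusted p = 0.0494). With all 24 libraries these 3 were not called (adjusted p from 0.861 to 0.991), and Csf1r then had a log2 fold change of -0.38. Leaving out HC1 also ended all 3 calls (adjusted p from 0.135 to 0.318). The macrophage sum was 104 to 310 CPM in controls, 108 to 674 CPM at 5 MPa and 156 to 306 CPM at 50 MPa. At 50 MPa edgeR called 0 of the 4 leukocyte genes and 1 of the 8 macrophage genes higher, beside 1.47% of all tested genes. With all 24 libraries 0 genes were called at 50 MPa. In metatarsals, with 16.7 to 28.1 CPM of the leukocyte genes, Kit was at 14.7 to 21.4 CPM. Other lists set H53 and HC4 apart as well. H53 and HC4 had the highest sums of 6 endothelial genes among the hip caps (239 and 210 CPM, against 46.8 to 123 CPM in the rest) and of 5 fibroblast genes (6697 and 4476 CPM, against 995.1 to 3452 CPM), and their cartilage sums (18090 and 7976 CPM) were, with that of H502 (10840 CPM), the lowest. H53 also had the highest neutrophil sum (181 CPM, against 4.81 to 47.3 CPM). The part of these cells in the change of Kit was not tested.

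**Figure D5:**
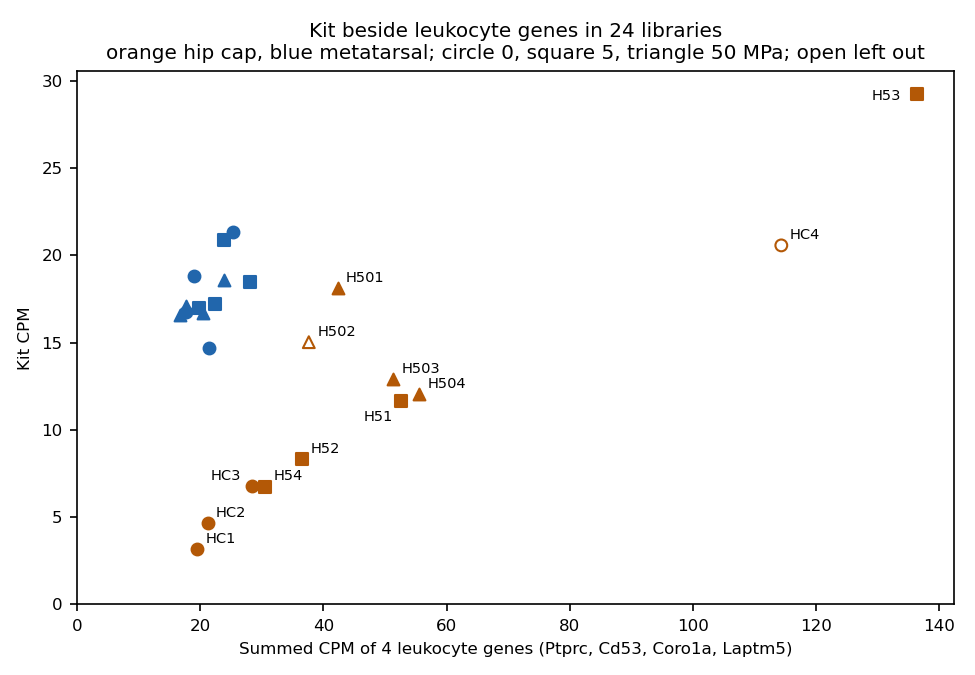
Kit (CPM) against the summed level of 4 leukocyte genes (CPM) in 24 libraries, with hip caps in orange and labelled, metatarsals in blue, and circles, squares and triangles for 0, 5 and 50 MPa; open points were left out of the fit. Among hip caps the libraries with the highest leukocyte sums, H53 and HC4, have the highest Kit, while metatarsals have 14.7 to 21.4 CPM of Kit at 16.7 to 28.1 CPM.

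Melanocytes also depend on Kit. The 6 melanocyte genes summed to 4.35 to 5.02 CPM in the control hip caps used, to 4.0 to 5.26 CPM at 5 MPa, with H53 the lowest, and to 1.5 to 2.22 CPM at 50 MPa, while HC4 had 12.4 CPM and H502 18.7 CPM. The libraries at 50 MPa were unstranded. There edgeR called 1 of the 3 tested melanocyte genes lower, beside 2.31% of all tested genes called in either direction. The library type term was -1.06 for Dct, -1.1 for Tyr and 1.46 for Pmel, and none passed (adjusted p from 0.0692 to 0.402 by edgeR). The 5 granule proteases had 1 count in H53 and 0 in HC4, the libraries with the highest Kit.

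For the proteases themselves in hip caps the test had little to work on. At 5 and 50 MPa the fitted changes of the 5 genes had SE between 2.04 and 4.25 on the log2 scale and adjusted p from 0.235 to 0.674 by edgeR, and of their 130 counts in the 10 hip caps used 26 were in H52 and 98 in H503. The change in hip caps less that in metatarsals did not pass for any of the 5 (adjusted p from 0.274 to 0.780, beside 0.0658% of genes called at 5 MPa and 0.0705% at 50 MPa). For Ms4a2 an exact permutation test gave p = 0.743 at 5 MPa and 0.7 at 50 MPa, where 3 against 3 cannot go below 0.1.

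The ligand side was measured as well. Kitl, which encodes stem cell factor, was at 33.4, 26.1, 30.0 and 22.4 CPM in control metatarsals and at 1.32, 6.80 and 3.33 CPM in control hip caps, and it was lower in hip caps by a log2 fold change of -2.77 (SE 0.62, adjusted p = 0.00211). With all 24 libraries it did not pass (adjusted p = 0.119). At 5 MPa the hip caps were at 9.25, 11.1, 39.0 and 8.06 CPM, all above the controls, as for 16.2% of tested genes not overlapping between these groups, and the change of 2.05 (SE 0.62) missed the threshold (adjusted p = 0.0631). H53 and HC4 (28.9 CPM) were the highest hip caps, as they were for Kit.

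Among other growth factors and cytokines that act on mast cells, Il33 and Tslp were also lower in hip caps between the control tissues and Tgfb1 was higher. Il33, an alarmin that activates mast cells, had a log2 fold change of -4.25 (adjusted p = 0.000590), which was lost with all 24 libraries (adjusted p = 0.386). Tgfb1 had 2.39 (adjusted p = 4.03e-08). Il3 and Il9, which drive mast cell growth in culture, had 0 counts in all 22 libraries, and Il13 had 9 in sum. Under pressure edgeR called none of Kitl, Il33, Tslp and Tgfb1 in either tissue, and in metatarsals none had an unadjusted p under 0.05. In hip caps Kitl and Tgfb1 at 5 MPa and Il33 and Tslp at 50 MPa had an unadjusted p under 0.05 by edgeR, beside 22.6% and 21.3% of all tested genes, with adjusted p from 0.0631 to 0.186.

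Genes of the KIT and FcεRI pathways downstream of the receptors were measured in both tissues. All 16 passed the filter, and edgeR called 0 of them for pressure in either tissue. In hip caps at 5 MPa their median log2 fold change was 0.87, against 0.04 over all genes, and 9 of 16 had an unadjusted p under 0.05, beside 22.6% of all tested genes, among them Syk (1.15, SE 0.37, adjusted p = 0.0736), the kinase that FcεRI recruits, and Lcp2 (1.29, SE 0.42, adjusted p = 0.0757), an adaptor. These genes serve other leukocytes too, and the leukocyte sum above was highest in H53 and in HC4, which was not in the fit. A link between that sum and these genes was not tested.

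Of the further mast cell genes, 2 rose in hip caps at 5 MPa, beside the 2.69% of genes called higher. Fcer1g was at 2.90, 4.17 and 3.24 CPM in the controls used and at 8.78, 7.23, 27.2 and 5.31 CPM at 5 MPa (log2 fold change 1.66, SE 0.48, adjusted p = 0.0462). Il1rl1 was at 12.9, 8.34 and 6.84 CPM in controls and at 20.3, 33.4, 49.5 and 21.5 CPM at 5 MPa (1.76, SE 0.46, adjusted p = 0.0355). Il1rl1 also rose at 50 MPa, where it was at 45.2, 92.8 and 15.3 CPM (2.59, SE 0.59, adjusted p = 0.0380), as 1 of 15 genes called, beside 1.47% of genes called higher. HC4 had 24.1 CPM of Fcer1g and 67.4 CPM of Il1rl1, above every control used, and with all 24 libraries the 3 calls were lost (at 5 MPa 0.30 for Fcer1g and 0.29 for Il1rl1, and at 50 MPa 1.40 for Il1rl1, with adjusted p of 0.889, 0.917 and 0.50). Leaving out any 1 of the controls or H53 also ended both calls at 5 MPa (adjusted p from 0.0739 to 0.280), and leaving out HC3 or H503 ended that at 50 MPa (adjusted p of 0.419 and 0.0856). Leaving out 1 library of a group outside the contrast gave an adjusted p of up to 0.0854 at 5 MPa and 0.0628 at 50 MPa. In metatarsals edgeR called 0 of the 15, none with an unadjusted p under 0.05.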

How the data were processed

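The authors trimmed reads with Trim Galore 0.6.5, assigned them with kallisto (GRCm39 per the processing notes) and made gene totals in tximport. What they deposited is a table of estimated counts without normalization, rounded here. Names came from GENCODE M21 (GRCm38) for 48845 of 52178 identifiers.

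Counts were fitted with edgeR 4.0.16 in R 4.3.3 (filterByExpr over the 6 groups, TMM, robust quasi-likelihood, two-sided, Benjamini-Hochberg, threshold 0.05) over 22 libraries and 21283 genes, with a term for library type. The study also used the sequencing run, which the labels do not give, so it was not fitted. SE came from the log2 fold change and F. The fit was tested on simulated data. Correlations used scipy 1.17.1. Members and lists were chosen with earlier results of these data known. Besides the members, genes of the written lists and the 5 genes most like the members could be named. Alternatives were DESeq2 1.42.0, RLE factors, no filter, all 24 libraries, no library type term, metatarsals alone, library sizes alone (added later), a replicate block and leaving out each library. Replicate numbers did not pair the libraries. Some genes of the lists are not reported here.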

Additional observations from a re-analysis of the deposited data

Results flagged for a closer look

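In 6 of the 38 groups of 4 libraries that were examined for the 7 genes, 1 library stood apart from the other 3 by Dixon's ratio at the 95% level. The nominal rate of about 1 in 20 groups does not hold for counts near 0. Any count beside 3 libraries at 0 gives a ratio of 1, as 1 count of Tpsb2 did in control hip caps. The number of groups flagged can therefore not be set against chance. In hip caps at 5 MPa it was H52 for Mcpt4 (0.136 CPM, 2 counts), Cpa3 (0.682 CPM, 10 counts) and Tpsb2 (0.682 CPM, 10 counts), and in control hip caps it was HC3 for Tpsb2 (0.0924 CPM, 1 count). At 50 MPa it was H503 for Cpa3 (2.36 CPM, 35 counts, against at most 0.303 CPM) and H502 for Tpsab1 (2.88 CPM, 19 counts, against at most 0.336 CPM).

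The libraries that the study left out had levels of some members above all 3 control hip caps used. H502 had 0.910 CPM of Cma1, 0.910 CPM of Mcpt4, 1.37 CPM of Tpsb2, 2.88 CPM of Tpsab1 and 15.0 CPM of Kit, and HC4 had 20.6 CPM of Kit with 0 counts of the 5 proteases. H502 also had counts for related genes that were at 0 or 1 in every other library, with 29 for Prss33, 10 for Prss29, 9 for Prss28 and 8 for Gzmf. Genes of other cell types stood out in H502 too, with 20 counts for Krt5, 19 for Krt14 and 28 for Krt15. Tyrp1 and Mlana had 13 each, and any other hip cap had at most 1 count of each of these genes. Whether the member counts of H502 came from mast cells was not tested.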

How the results depend on the processing

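The labels tie replicate numbers to no shared animal or day, and residual correlations of equal numbers ran from -0.29 to 0.17. The replicate block changed no call of a member, turned Mcpt4 (0.10) and Cpa3 (0.047) at 50 MPa and Tpsab1 at 5 MPa (0.021) in metatarsals above 0, and moved the count of all genes called at 50 MPa in hip caps from 492 to 314.

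Member calls in metatarsals and in the interaction were 0 under each alternative run. In hip caps at 5 MPa 1 member was called, and 0 without the filter and with all 24 libraries, with 0 to 1 when 1 library was left out. At 50 MPa 0 were called, and 1 (Kit) with DESeq2 and without the library type term. For Kit alone, the adjusted p at 5 MPa was 0.0895 without the filter and from 0.00815 to 0.276 with 1 library left out.

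Metatarsal changes that turned sign were never called, and the cause was not tested. Without the library type term Cma1 and Mcpt4 at 50 MPa were 0.21 and 0.30, and in metatarsals alone 0.18 and 0.26. With library sizes alone the changes at 50 MPa were 0.088 (Cma1), 0.19 (Mcpt4), 0.021 (Cpa3), 0.013 (Tpsb2) and 0.16 (Kit), and Tpsab1 at 5 MPa was 0.065, where the medians of all genes were 0.27 and 0.26. With all 24 libraries Kit at 50 MPa was 0.019. With 1 library left out, values at 5 MPa ran from -0.039 to 0.54 (Cpa3), -0.11 to 0.65 (Tpsb2), -0.51 to 0.64 (Tpsab1) and -0.049 to 0.13 (Kit), and at 50 MPa from -0.53 to 0.29 (Cma1), -0.44 to 0.58 (Mcpt4), -0.58 to 0.18 (Tpsb2) and -0.65 to 0.50 (Tpsab1). Each highest value was the one without MC3.

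The numbers of genes called overall moved more. In hip caps 1162 were called at 5 MPa and 21 with all 24 libraries, 2027 without the library type term, 2080 with DESeq2 and 104 to 2511 with 1 library left out, and at 50 MPa 492 became 0, 850, 1908 and 37 to 2366. Without the filter 313 were called at 50 MPa, and with library sizes alone 4093 at 5 MPa and 14 at 50 MPa. Between the control tissues 8212 became 5441 with all 24 libraries. In metatarsals the 0 genes called became 14 and 15 with DESeq2. Of the 21 pairs of members, 7 passed, and 6 to 9 under the alternatives. Genes with few counts, Ms4a2 and Tpsab1, limit what depth can show.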

Other observations

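Relatives of the members showed their own tissue pattern. Of 24 genes of the chymase, granzyme, tryptase and carboxypeptidase families that are no members, 5 passed the filter, and between the control tissues edgeR called 1 higher in hip caps and 2 lower, among them Cpa6 (higher, log2 fold change 1.58, adjusted p = 9.79e-06) and Cpa4 (lower, -6.50, adjusted p = 0.00152), beside 38.6% of all tested genes. Cpa4 was at 13.9 CPM in MC2, the metatarsal library with keratinocyte genes, and at 0.743 CPM in its lowest metatarsal library.

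Granzyme genes beside the chymases differed in level between the tissues. Gzme had 5 to 106 counts in each of the 10 hip caps used, 106 of them in H53, and 3 counts over all 12 metatarsal libraries. Its log2 fold change between the controls was 4.06 (SE 1.64) and did not pass (adjusted p = 0.0657). Gzmb went the other way, with 88 counts over 11 of 12 metatarsal libraries and 3 counts over the hip caps, and was not tested because of its low counts.

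In hip caps Alox5, which starts leukotriene synthesis, had 0 to 23 counts, and like Slc18a2 it was higher in unstranded libraries (library type term 4.19 on the log2 scale, SE 1.07, adjusted p = 0.0199 by edgeR), with 6.16% of all tested genes called for that term.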
